A study of Tachycineta bicolor with 14 samples.

Results

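A set of 182 genes was abundant in the brains of embryos from low-density mothers and at a small part of that level in the brains of 2 embryos from high-density mothers, numbered 2 and 4 in their group. Its members were the genes with a mean of 50 CPM (the count divided by the library total and multiplied by 1000000) or more over the 7 low-density embryos, and with a CPM in each of high-density embryos 2 and 4 of at most 25% of the mean of the other 12 embryos. Of 13375 genes in the table, 3780 met the abundance condition, and 4.81% of these were members. The members were chosen by their CPM in embryos 2 and 4, their low-density mean and their mean in the other 12 embryos, so the size of the loss is given as a description, with no test.

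The libraries hold polyadenylated RNA of 14 whole brains, each from 1 embryo of the tree swallow, Tachycineta bicolor, taken on embryonic day 11. In 7 embryos the mother bred at high density and in 7 at low density, and density varied naturally, so that it was observed and not assigned. The labels give neither the sex nor the nest of an embryo. Sample codes start with a letter prefix whose meaning the labels do not state. High-density embryo 2 shared its prefix with high-density embryo 7, and high-density embryo 4 shared its own with high-density embryo 6 and with 2 of low density, embryos 5 and 6. Of the 6 prefixes, only that of high-density embryo 4 occurred at both densities.

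High-density embryos 2 and 4 had 6680344 and 6812901 estimated counts, with a value above 0 for 12225 and 12299 genes. The other 5 high-density embryos had 4201024 to 6745008 counts over 11308 to 12529 genes, and the 7 low-density embryos had 3950422 to 6078272 counts over 11881 to 12379 genes. High-density embryo 7 and low-density embryo 7 had the fewest genes detected, 11308 and 11881, and the lowest TMM scaling factors (edgeR's correction for composition), 0.737 and 0.868. The other 12 factors ran from 0.973 to 1.15.

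The table gives genes by identifier, pairs only 7 of the 13375 with names, and names none of the 182. What the members encode, and whether the libraries show the markers of brain tissue, could therefore not be looked up: of 58 marker symbols in 11 cell type lists, 0 matched. As background, the brain of a bird embryo holds young neurons, dividing progenitors, early glia, vessels and blood. A library made from a whole brain sums over all of them, so that a gene used by 1 cell type falls in CPM when that type is scarcer as well as when its cells carry less of the RNA. Fewer cells of a type and less RNA per cell cannot be told apart in these data. CPM is also relative, since counts gained by some genes lower the share left to all others.

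Together the 182 genes took 0.474% of counts in high-density embryo 2 (95% Wilson interval 0.468 to 0.479%) and 0.772% in high-density embryo 4 (0.765 to 0.778%). In the other 5 high-density embryos they took 3.48%, 3.49%, 5.74%, 3.75% and 3.36%, a mean of 3.96 ± 1.002% (SD, n = 5). The 7 low-density embryos ranged from 3.26% through a median of 5.54% to 6.73%, with a mean of 5.36 ± 1.13% (SD, n = 7). No other embryo came near embryos 2 and 4, while the 5 remaining of high density overlapped with those of low density. Intervals of single libraries cover counting error only. None of the 100 most abundant genes of embryos 2 and 4 was a member, against 4 to 10 members in each remaining library of high density and 4 to 11 in each of low density.

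**Figure D1:**
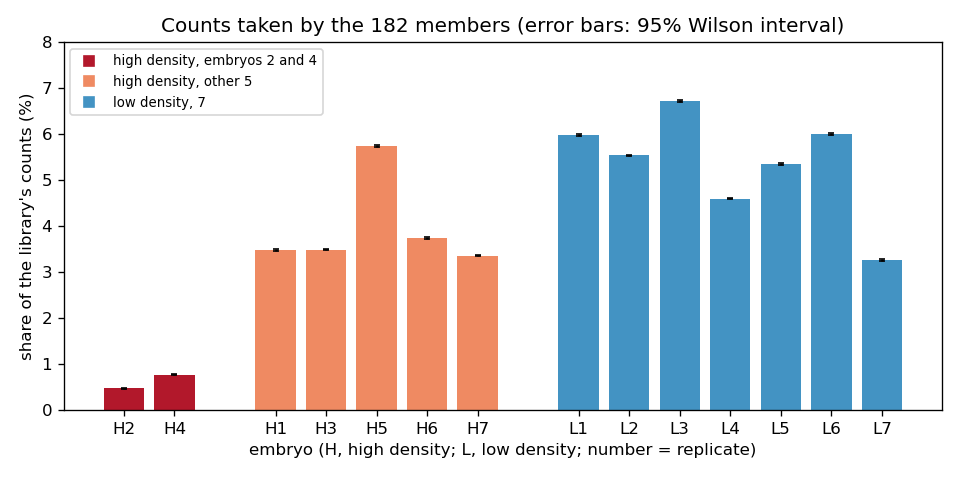
Share of each library's counts taken by the 182 members, in percent, with high-density embryos 2 and 4 on the left, the other 5 high-density embryos in the middle and the 7 low-density embryos on the right. Error bars are 95% Wilson intervals. Embryos 2 and 4 stand at 0.474% and 0.772%, and the other 12 embryos between 3.26% and 6.73%.

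At low density the members ran from 50.4 to 5121 CPM with a median of 128.5 CPM, where the other genes past the same abundance condition had a median of 109.6 CPM. The most abundant member, tree_swallow005296, had 539.5 and 911 CPM in high-density embryos 2 and 4, 2956, 2846, 4718, 3374 and 3811 CPM in the other 5 high-density embryos, and 3879 to 7290 CPM (median 4812) in the 7 low-density embryos. Embryos 2 and 4 were far below all others, and the other high-density embryos overlapped the low-density ones only through embryo 5. It ranked among the 4 to 16 most abundant genes in the low-density libraries. The next, tree_swallow006823, had 279.7 and 662 CPM in embryos 2 and 4, 2015, 1826, 2518, 2350 and 3254 CPM in the other 5 high-density embryos, and 3077 to 3788 CPM (median 3337) at low density. Here the overlap with low density came from high-density embryo 7 alone.

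Members further down the order of abundance repeated the low values in embryos 2 and 4 but not the order of the other embryos. The gene of rank 3 had 172.9 and 368 CPM in embryos 2 and 4, 2105, 1657, 2941, 2281 and 1327 CPM in the other high-density embryos, and 1746 to 3785 CPM (median 3173) at low density. Its lowest value outside embryos 2 and 4 was that of high-density embryo 7. The gene of rank 4 had 233.7 and 522 CPM in embryos 2 and 4, 1942, 1507, 2746, 1438 and 4208 CPM in the other high-density embryos, and 1709 to 2979 CPM (median 2378) at low density. For this gene high-density embryo 7 held the highest value of all 14. The gene of rank 5 had 61.1 and 77.2 CPM in embryos 2 and 4, 998, 588, 2142, 931 and 486 CPM in the other high-density embryos, and 843 to 3790 CPM (median 1273) at low density, so that it was the most uneven of the 5 among the low-density embryos.

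The loss was of similar depth across most members. Leaving aside 4 genes described further on, which were also off in other embryos, the 178 remaining members stood at a median of 9.62% of the mean of the other 12 embryos in high-density embryo 2, from 2.68% to 24.8%, and at 15.5% in high-density embryo 4, from 2.69% to 24.96%. The middle 50% of them lay between 7.08% and 13.7% in embryo 2 and between 11.9% and 20.8% in embryo 4. In fold terms the medians were 10.4-fold and 6.44-fold below the mean of the other 12. The upper bound of 25% is set by the choice of members and makes the spread look narrower than it would be without it. None of the 178 was at 0 in either embryo, and over all 182 members the median count behind a value was 75 in embryo 2 and 110.5 in embryo 4.

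High-density embryo 2 was the lower of the 2 embryos in 143 of the 178 genes and embryo 4 in 35. The median ratio of embryo 2 to embryo 4 was 0.656, with a middle 50% from 0.479 to 0.939 and a full range from 0.209 to 2.59. The 2 embryos were within 2-fold of each other in 122 genes, embryo 2 was lower by more than that in 48 and embryo 4 in 8. Over the 3598 other genes past the abundance condition the same ratio had a median of 0.921. How deep the loss went showed no steady course with abundance: in 4 groups of 45 or 46 members by their low-density level, from most to least abundant, the median remaining level was 9.93%, 7.87%, 8.97% and 12.2% in embryo 2, and 16.1%, 14.5%, 14.7% and 16.02% in embryo 4.

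**Figure D2:**
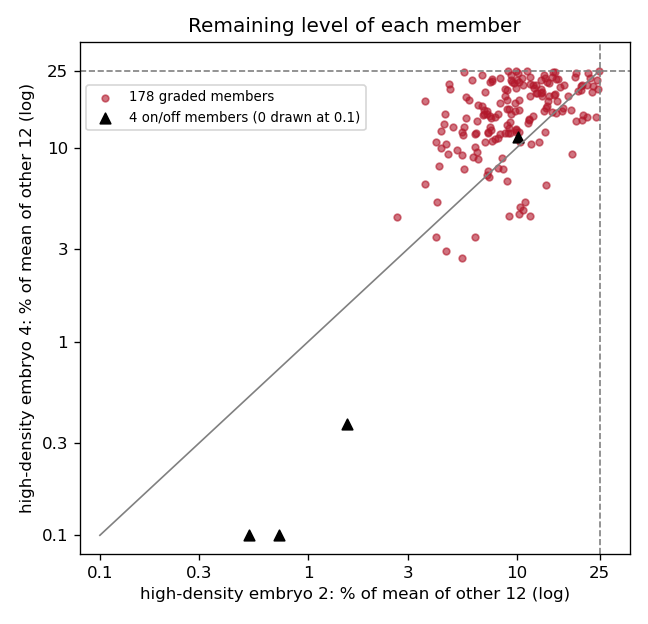
Remaining level of each member in high-density embryo 2 (horizontal axis) and high-density embryo 4 (vertical axis), as a percent of the mean of the other 12 embryos, both on log axes. Dashed lines mark 25%, the solid line marks equal levels, circles are the 178 graded members and triangles the 4 on/off members. Most circles lie above the solid line, as 143 of the 178 genes were lower in embryo 2.

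The limit of 25% falls inside a continuous range. The 4 members nearest to it had 24.8% to 24.96% in the higher of the 2 embryos, and the 4 genes just outside had 25.4% to 25.7%. With these 4 included, 90 genes of the same abundance had a higher value above 25% and up to 33.3%. Of the 3780 abundant genes, 330 were at or under 25% in embryo 2 and 196 in embryo 4. The 182 members are 4.81% of all abundant genes, 55.2% of the list of embryo 2 and 92.9% of the list of embryo 4. Both lists were measured against the same 12 embryos. In the opposite direction only 1 gene of the same low-density abundance, tree_swallow000278, was at least 4-fold above the mean of the other 12 in both embryos. It had 458 and 611 CPM in embryos 2 and 4, 132.1, 391, 138.2, 122.5 and 40.9 CPM in the other 5 high-density embryos, and 43.2 to 107.6 CPM (median 77.4) at low density. A floor at low density leaves out genes that rise from a lower level, so 182 and 1 are not like counts. With the floor set in embryos 2 and 4 there were 27 raised genes, described further on.

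Both embryos were below all other 12 in 171 of the 182 members, a comparison fixed by the choice of members, where 13.5% of all 3780 abundant genes had this order. The 11 exceptions were the 4 on/off genes and 7 graded members, and in each of these 7 only high-density embryo 7 or low-density embryo 7 reached down to the higher of the 2 values.

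The other 12 embryos were not level. Median levels of the members, as a percent of the mean of the 12, were 67.6%, 76.3%, 120.4%, 79.8% and 43.8% in high-density embryos 1, 3, 5, 6 and 7. In low-density embryos 1 to 7 they were 121.4%, 125.6%, 135.4%, 94.1%, 123.8%, 122.5% and 55.3%. On CPM, high-density embryo 7 and low-density embryo 7, 1 of each density, thus lay between embryos 2 and 4 and the rest. Another 6 embryos stood together between 120.4% and 135.4%. The other genes past the abundance condition had medians of 94.1% and 99.7% in embryos 2 and 4, 79.8% to 102.6% in the other high-density embryos, with the lowest in embryo 7, and 94.9% to 105.5% at low density. Relative to the other abundant genes of the same library, the members were thus lowest in embryos 2 and 4, as chosen. Next came high-density embryo 7 (43.8% against 79.8%) and low-density embryo 7 (55.3% against 94.9%).

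The intermediate levels of the embryos numbered 7 stood beside the lowest TMM factors of the 14, 0.737 and 0.868, while embryos 2 and 4 had factors of 1.01 and 1.06. On TMM-scaled library sizes the members' medians were 9.47% and 14.7% in embryos 2 and 4, 60.2% in high-density embryo 7 and 64.7% in low-density embryo 7, where the other abundant genes stood at 107.4% and 108.5%. High-density embryo 3 moved the other way, to 66.8%, and high-density embryo 1 stood at 69.5%. By the members' medians alone, the embryos numbered 7 were thus close to high-density embryos 1 and 3 on this scale. High-density embryo 5 and low-density embryos 1, 2, 3, 5 and 6 ranged from 107.5% to 141.4%. The other abundant genes stood at 88.7% in high-density embryo 3 and 95.1% in high-density embryo 1. Relative to these genes of the same library, the members were again lowest of the 12 in the embryos numbered 7. TMM scaling divides all values of a library by the same factor, so this order was nearly fixed beforehand. The part of library composition or depth in the gradation was not tested.

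**Figure D3:**
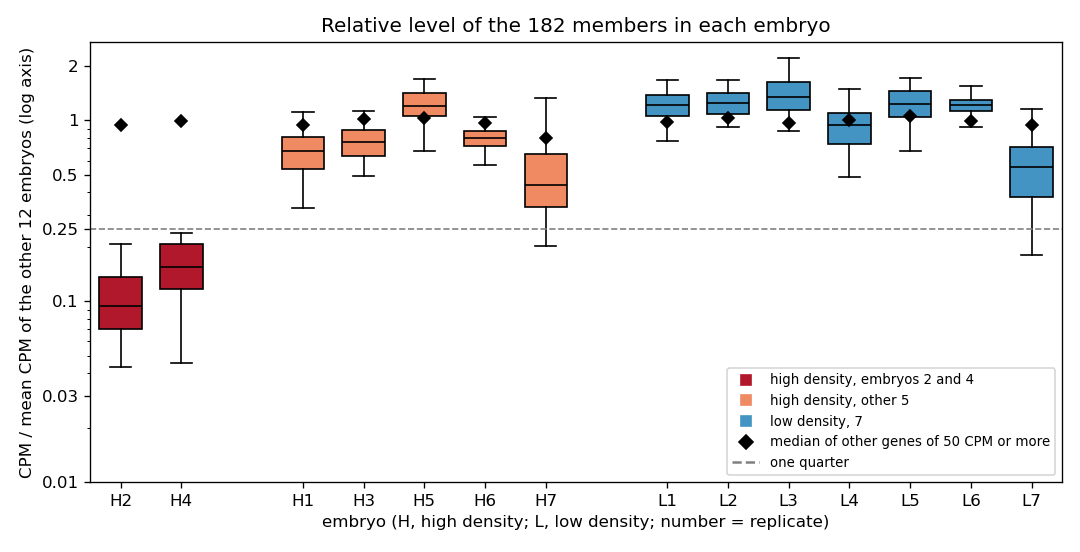
Level of the 182 members in each embryo, divided by their mean in the 12 embryos besides 2 and 4 of high density, on a log axis. Boxes show the middle 50% with the median, whiskers the 5th to 95th percentile, diamonds the median of the other genes of 50 CPM or more, and the dashed line 25%. Embryos H2 and H4 (high-density 2 and 4) lie below the line, and the diamonds stay between 79.8% and 105.5%. On CPM, as drawn, H7 and L7 have intermediate boxes. On TMM-scaled library sizes their medians, 60.2% and 64.7%, are close to those of H3 and H1, 66.8% and 69.5%.

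Single members followed this gradation to different degrees. Among the 178 graded members, the lowest of the other 12 embryos was high-density embryo 7 in 89 genes, low-density embryo 7 in 34 and high-density embryo 1 in 32. At or under 50% of the mean were 105 of them in high-density embryo 7, 77 in low-density embryo 7, 34 in high-density embryo 1 and 13 in high-density embryo 3, against 0 to 12 in each of the remaining 8 embryos. Of the other abundant genes, 14.98% were at or under 50% in high-density embryo 7, 5.003% in low-density embryo 7, 3.11% in high-density embryo 1 and 0.806% in high-density embryo 3. The level of 25% or less that defines the loss was reached by 19 genes in high-density embryo 7, 15 in low-density embryo 7, 4 in high-density embryo 1 and 0 in the other 9 embryos. Over all 3780 abundant genes, members included, 54, 35 and 19 reached it in these embryos, and 2 to 19 in each of the other 9. The highest of the other 12 was most often low-density embryo 3, in 62 genes, then low-density embryos 5 (39) and 2 (33) and high-density embryo 5 (16).

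The values of embryos 2 and 4 were also set beside those of embryos with the same code prefix, a description in which the choice of members fixes most of the direction. High-density embryo 2 was below high-density embryo 7, which has the same prefix, in 180 of the 182 members, and the median member was 4.73-fold higher in embryo 7, itself the lowest of the other 12 embryos by its median of 43.8%. High-density embryo 4 was below high-density embryo 6, of its own prefix, in 181 members, with a median 4.91-fold higher in embryo 6. Low-density embryos 5 and 6, of the prefix of embryo 4 as well, had the members at 123.8% and 122.5%. These are values within a prefix, with 1 embryo on each side for high density.

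Outside embryos 2 and 4 the members varied together. Over the 12 other embryos the median correlation between 2 members was 0.67 (Pearson's r of log2 CPM, 16471 pairs over the same 12 embryos), with a middle 50% from 0.38 to 0.83, and 31.1% of pairs were at 0.8 or above. Pairs among the 3598 other abundant genes had a median of 0.07 with a middle 50% from -0.34 to 0.45, and 4.52% were at 0.8 or above. Within the 7 low-density embryos alone the members' median was 0.70. All pairs share the same libraries, depths and scaling, so these are descriptions with no p-value, and on TMM-scaled library sizes the median was 0.56 against 0.05 for the other abundant genes. The members were also more variable than genes of like abundance, with a median SD over the 12 embryos of 0.66 log2 CPM against 0.34.

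On log2 CPM, most graded members shared 1 profile and a minority did not. The profile was not recomputed on TMM-scaled library sizes. On that scale 20.4% of pairs of members had an r of 0.8 or above, where 4.55% of pairs of the other abundant genes did. The shares were 31.1% and 4.52% on CPM, and 22.2% and 3.07% on CPM without the embryos numbered 7. Set against the mean profile of the other graded members, 112 of the 178 genes had an r of 0.8 or more, 46 lay between 0.5 and 0.8, and 20 were under 0.5, with a range from -0.29 to 0.98 over 12 embryos. The share of the other abundant genes at 0.8 or more was not taken, and that at 0.9 is given further on. The 112 genes had medians of 38.3% in high-density embryo 7 and 47.3% in low-density embryo 7, where the 20 had 108.7% and 115.9%. In embryos 2 and 4 the 20 had medians of 8.41% and 14.9%, where the 112 had 9.87% and 15.6%. Among these 20 were the members ranking 2, 4 and 9 by abundance. The gene of rank 9 had 85.8 and 161.9 CPM in embryos 2 and 4, 896, 550, 1039, 928 and 2264 CPM in the other high-density embryos, and 763 to 1713 CPM (median 1077) at low density. In high-density embryos 1 and 3 the 20 genes had medians of 57.2% and 66.5%. Their higher levels in the embryos numbered 7 follow from being chosen by a low r with the shared profile, and their low levels in embryos 2 and 4 from the choice of members.

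**Figure D4:**
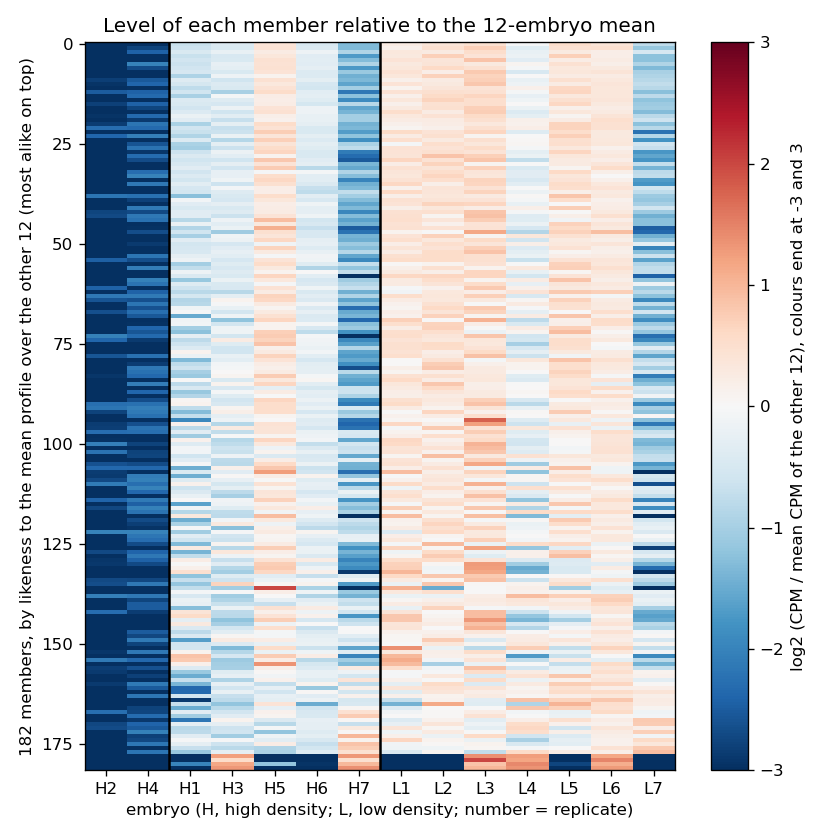
Level of each of the 182 members (rows) in each embryo (columns) as log2 of its CPM over the mean CPM of the other 12 embryos, with rows ordered by their correlation with the mean profile of the graded members over the 12. Dark blue columns H2 and H4 are high-density embryos 2 and 4; H7 and L7 are blue in the upper rows and not in the lowest graded rows. The 4 rows at the bottom are the on/off members.

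There were 4 members, ranking 39, 53, 70 and 101 by low-density abundance, with another pattern. All 4 were on in embryos 3 and 7 of high density and in embryos 3, 4 and 6 of low density, and low or off in the other 7 of the 12 embryos, as well as in embryos 2 and 4. The gene of rank 39 had 2.25 and 0 CPM in high-density embryos 2 and 4, 694 to 809 CPM in the 5 embryos where it was on, and at most 1.15 CPM in the other 7. The genes of rank 53 and 101 had the same form, with 242.1 to 714.8 and 237.7 to 304.4 CPM where on and at most 1.34 and 0.694 CPM elsewhere among the 12. The gene of rank 70 had 18.3 and 20.5 CPM in embryos 2 and 4, 324 to 492 CPM where on, and 6.72 to 79.1 CPM in the other 7. A count of 0 in embryo 4 allows up to 0.440 CPM. In these 4 genes embryos 2 and 4 were thus on the same side as 7 embryos of both densities. The 4 were set aside after their values were seen, as members at or under 25% in at least 5 of the other 12.

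Genes outside the set that followed the members' profile in the 12 embryos were also low in embryos 2 and 4. Of the 3598 other abundant genes, 109 (3.03%) had an r of 0.9 or more with the mean profile of the graded members on log2 CPM. Of the 178 members themselves, 59 did (33.1%, each set against the others). These 109 genes were chosen by their values in the 12 embryos and by not being members. The profile they were matched to came from members picked by low values in embryos 2 and 4. Their levels there are therefore a description and no independent check. The 109 had medians of 37.0% and 45.3% in embryos 2 and 4, and 56 of them (51.4%) were at or under 50% in both. Among the remaining 3489 genes the medians were 95.6% and 101.1%, and 214 (6.13%) were at or under 50% in both. None of the 109 was above the mean of the 12 in both embryos, but the like share of the remaining 3489 genes was not taken.

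The question of the study, whether expression differs with breeding density, was put to these genes without embryos 2 and 4. This comparison is not independent of the choice of members, which used the low-density mean, through the floor of 50 CPM, and the mean of the 12 embryos. The 3780 abundant genes passed the same floor. Between the other 5 high-density embryos and the 7 of low density, 174 of the 182 members had a log2 fold change below 0 (high minus low), with a median of -0.48 and a middle 50% from -0.61 to -0.34. Over all 10870 tested genes the median was 0.02 and over the 3780 abundant genes -0.04, with 55.0% of these abundant genes below 0. Few single members passed the test: 2 of 182 (1.10%, both lower) had an adjusted p under 0.05 by edgeR's quasi-likelihood test with Benjamini-Hochberg adjustment over all tested genes, where 1.01% of all genes passed in either direction and 0.11% were lower. At an unadjusted p under 0.05, 67 members (36.8%) were lower and 0 higher, against 4.71% lower of all tested genes and 8.36% lower of the abundant genes. The members vary together, so these 67 are not 67 separate observations. In 3 members (1.65%) the 5 high-density values all lay below the 7 low-density values, which 0.608% of the abundant genes did.

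The 2 called members ranked 50 and 141 by low-density abundance. The first had 139.5, 144.0, 189.5, 171.9 and 95.7 CPM in the 5 high-density embryos and 165.0 to 286.4 CPM (median 254.4) at low density, and embryos 5 and 6 of high density overlapped with this range. The log2 fold change was -0.69 ± 0.14 (SE), with an adjusted p of 0.0410 by edgeR. In embryos 2 and 4 it had 18.9 and 27.7 CPM. The other had 33.9, 48.9, 61.9, 50.3 and 32.8 CPM at high density, against 57.8 to 92.3 CPM (median 73.7) at low density, with embryo 5 overlapping. Here edgeR gave -0.70 ± 0.15 (log2 fold change, SE) and an adjusted p of 0.0482, and the gene had 4.49 and 4.55 CPM in embryos 2 and 4. They were called in 4 and 2 of the 12 fits that leave out 1 embryo. Adjusted p-values were 8.88e-05 and 0.00129 by DESeq2, and 0.0584 and 0.0756 by limma-voom. The most abundant member, tree_swallow005296, averaged 3541 ± 760 CPM in the 5 high-density embryos and 5121 ± 1161 CPM at low density (SD, n = 5 and 7) and did not pass (log2 fold change -0.48 ± 0.22 SE; edgeR adjusted p = 0.341). Nor did tree_swallow006823, at 2393 ± 553 and 3385 ± 241 CPM (SD, n = 5 and 7; log2 fold change -0.41 ± 0.22 SE; edgeR adjusted p = 0.448).

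**Figure D5:**
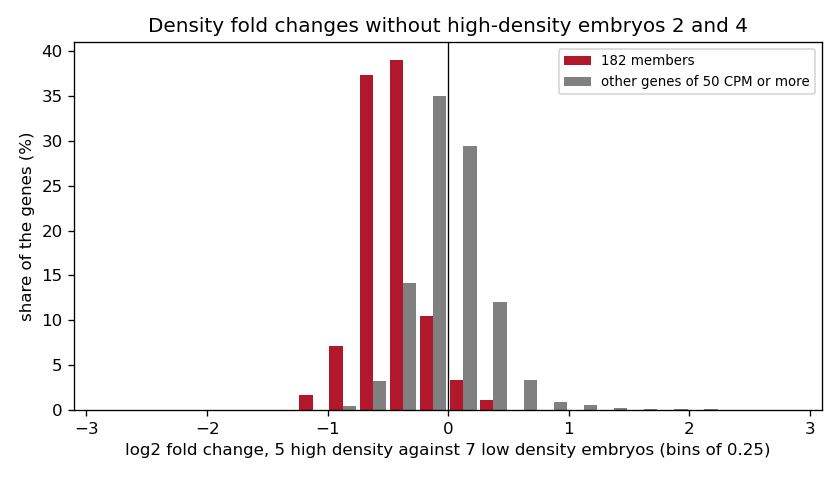
Distribution of log2 fold changes between the 5 high-density and the 7 low-density embryos, without high-density embryos 2 and 4, in bins of 0.25. Red bars are the 182 members and grey bars the other genes of 50 CPM or more, each as a percent of its own set. The members' median is -0.48, and 174 of the 182 are below 0.

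Calls rested on single embryos, while the direction of the members' median held in each fit without 1 embryo. Every member called in these fits was lower. Without high-density embryo 7, 15 of 182 tested members were called, where 392 of all 11039 tested genes were, 55 of them lower. Without high-density embryo 5 the counts were 9 of 182 members and 208 of 10940 genes (28 lower). Without low-density embryo 7 they were 4 of 182 and 98 of 10864 (18 lower). Without low-density embryo 1 they were 1 of 182 and 115 of 10759 (10 lower). No member and no gene was called without high-density embryo 1, 3 or 6 or low-density embryo 2, 3 or 5. In these fits 1154 to 1510 genes had an unadjusted p under 0.05 by edgeR. The number of called members was also 0 without low-density embryo 4 (34 genes called, 1 of them lower) or low-density embryo 6 (1 gene called, lower). The median log2 fold change stayed between -0.64 and -0.42 in these 12 fits. With the code prefix as a term, which leaves the comparison to high-density embryo 6 and low-density embryos 5 and 6, it was -0.56. Every other prefix occurred at 1 density only, so density and prefix cannot be told apart in the remaining embryos. With all 14 embryos, 615 of 10774 tested genes were called, 69 of them (0.64% of all tested genes) lower. Embryos 2 and 4 served to choose the members, so no count of members is read from this fit.

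Genes raised in the same 2 embryos were likewise chosen by their values there, with the abundance floor set in embryos 2 and 4 instead of at low density, so that their low-density level is not comparable with that of the members. With a mean of 50 CPM or more in embryos 2 and 4 and at least 4-fold above the mean of the other 12 in both, there were 27 such genes, with a median of 10.5 CPM at low density. They took 0.492% and 0.467% of counts in embryos 2 and 4, 0.130 ± 0.072% in the other 5 high-density embryos (SD, n = 5) and 0.0422 ± 0.0132% at low density (SD, n = 7). In high-density embryos 1, 3, 5, 6 and 7 the raised genes stood at medians of 203.3%, 271.1%, 121.1%, 165.6% and 38.9% of the mean of the 12, and at 31.1% to 72.4% at low density. High-density embryo 7, whose members were at 43.8%, was thus below the mean of the 12 in both sets on CPM. Its 38.9% lay inside the low-density range, and its other abundant genes stood at 79.8%. The raised genes were not recomputed on TMM-scaled library sizes.

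Of the 182 members, 18 (9.89%) had a count that was not whole in some embryo (tolerance 1e-06), which in estimated counts can arise from reads shared between transcripts, against 193 (5.36%) of the other abundant genes. No member had the same counts as another gene in all 14 libraries.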

How the data were processed

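Whole-brain polyadenylated RNA libraries of 14 embryos were made with the xGen RNA library kit, per the labels' protocols. Per the submitters' processing notes, fastp 0.20.1 and Salmon 1.9.0 were used; the deposited values are unnormalized estimated counts per gene. The sources used here name no reference transcriptome. Each column matched 1 sample's description, which gave its group. Embryos are numbered in accession order within a group.

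Members and comparisons were chosen with earlier results of these data known. CPM used column sums. Counts were rounded, genes were kept with filterByExpr (minimum count 10, minimum total 15; 10870 kept, 2505 dropped), scaled by TMM and tested with edgeR 4.0.16 (R 4.3.3, quasi-likelihood, robust) over the 12 embryos, high against low density, with adjusted p under 0.05 as threshold. Each standard error was derived from the log2 fold change and its F statistic. The test was checked on simulated counts. Correlations used log2 CPM with a prior count of 2. Alternatives included DESeq2 1.42.0 and limma-voom (limma 3.58.1). Since the labels do not say that embryos came from separate nests, p-values measure only the spread between samples. Without names for genes, members are given by abundance rank and only the 2 most abundant by identifier, with 1 raised gene.

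A count of 3, the limit that a count of 0 allows, corresponds to 0.440 to 0.759 CPM across libraries and covers counting error only.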

Additional observations from a re-analysis of the deposited data

How the results depend on the processing

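The set depends on its limits: it held 58 genes at a limit of 12.5%, 272 at 33.3%, 277 with a floor of 25 CPM and 114 with a floor of 100 CPM, but 195 on TMM-scaled library sizes (181 of them members), 175 against the median of the other 12 (171 members), and 168 to 197 without 1 of the 12 embryos. The members' share of counts in high-density embryos 2 and 4 was 0.504% and 0.825% outside the 10 most abundant genes and 0.468% and 0.727% on TMM-scaled library sizes. For density in the 12 embryos, 10870 genes were tested, among them all 182 members. Of these, edgeR called 110 genes (12 lower) and 2 members, DESeq2 called 482 (117 lower) and 18, and limma-voom called 0 and 0. By limma-voom 1492 genes (529 lower) and 68 members had an unadjusted p under 0.05. With no expression filter edgeR called 91 genes (9 lower) and 1 member. Among abundant genes alone it called 8 (0 lower) and 0 members, with 468 (185 lower) and 45 unadjusted. Without the prefix of both densities it called 1 gene (lower) and 0 members, with 705 (208 lower) and 27 unadjusted. The fit with the code prefix as a term has 1 high-density embryo to compare, so its calls are not given. All members counted here were lower. Without 1 embryo the counts ran from 0 to 392 genes and from 0 to 15 members. Without the 2 libraries of fewest genes detected, an alternative chosen after seeing the data, they were 461 of 11033 tested genes (84 lower) and 24 of 182 members (all lower). The members' median log2 fold change stayed below 0 in all 20 alternatives, from -0.64 to -0.42. Their median correlation ran from 0.63 to 0.71 without 1 embryo and was 0.56 on TMM-scaled library sizes, also chosen after seeing the data; the cause of these differences was not tested. Medians of the members per embryo moved by less than the SD of their group, on a log2 scale, in 28 of 28 rescalings. This is a loose limit. Embryos 2 and 4 formed a group by themselves. The group of the remaining high-density embryos included embryo 7, which went from 43.8% to 60.2% on TMM-scaled library sizes. No paired analysis was possible because replicate numbers follow accession order and the labels pair no embryos.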

Other observations

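Abundant genes that passed the limit in only 1 of the 2 embryos were mostly low in the other as well. In high-density embryo 2 alone, 148 genes were at or under 25% of the mean of the other 12 embryos, and in high-density embryo 4 these genes had a median of 35.03%, from 25.4% to 103.4%, with 121 of them at or under 50% and 1 above the mean. In high-density embryo 4 alone there were 14 such genes, whose median in embryo 2 was 31.7%, from 26.9% to 65.4%, with 13 at or under 50%. Of all 3598 abundant genes outside the set, 8.62% were at or under 50% in embryo 4 and 13.7% in embryo 2. Both embryos were measured against the mean of the same 12, which ties the 2 percentages of a gene to each other. The 148 genes had medians of 54.8% in high-density embryo 7 and 74.5% in low-density embryo 7, and of 62.5% to 130.6% in the other 10 embryos. For the 14 genes the medians were 41.9% and 49.3%, against 75.8% to 143.0% in the other 10.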
